A study of Mus musculus with 17 samples.

Results

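Matrix metalloproteinases (MMPs), their tissue inhibitors (TIMPs) and the ADAMTS proteases were examined in metastatic cell lines of the MMTV-PyMT mouse, which carries the polyoma middle T oncogene under a mammary tumor virus promoter. All 46 genes with a symbol of the form Mmp, Timp or Adamts followed by a number were taken, out of 55450 genes in the bulk table. They were 23 Mmp, 4 Timp and 19 Adamts genes. ADAMTS-like genes and membrane ADAM genes do not match the rule and are described only as partners.

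The cells came from tumor-bearing organs of 10 female FVB/NJ MMTV-PyMT mice aged 10 to 12 weeks and carried no other stated allele or agent. Bulk RNA-seq covered 7 groups of 2 libraries each: mammary fat pad (MFP), which the labels call primary tumor and give no CD44 status, and cells sorted as EpCAMhigh with low or high CD44 from lung, from bone marrow (BM) and from lymph node (LN). CD44 is the surface receptor for hyaluronan, and EpCAM is an epithelial adhesion molecule. Replicates were clonal isolates from different mice, expanded in culture before the sort, so each value of a sorted group describes 1 expanded line. For MFP the labels name primary tumor tissue, whereas the paper names the compared sample an MFP-derived cell line. Single-cell RNA-seq covered 1 library each of lung CD44high (lungH), lung CD44low (lungL) and LN CD44high cells (lymphH). Bulk values are TPM, a transcript abundance scaled to transcript length and to the library's total, which keeps no record of the reads behind a value. In bulk, fewer cells of a type and less RNA per cell cannot be told apart.

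Some libraries stood apart from their labels or from their replicate. *Epcam* was at 0 TPM in both lung CD44low libraries and at 0.23 and 0.86 in the lung CD44high libraries, against 315 to 941 TPM in the other 10. Of 8 epithelial markers, 1 reached 1 TPM in both lung CD44low libraries and 2 in both lung CD44high libraries, against 6 or 7 elsewhere. The summed level of 9 fibroblast markers was 4708 to 5117 TPM in lung CD44low, 85.7 to 194.8 in lung CD44high, 3.51 to 19.9 in LN and BM, and 0.48 to 1.27 in MFP. *Dcn*, which encodes the matrix proteoglycan decorin, made up most of it, at 4091 and 4315 TPM in lung CD44low, whereas the fibroblast marker *Fap* was listed at 0 there. In lung CD44high 3 of the 9 reached 1 TPM in both libraries, with *Dcn* at 166 and 78.9 TPM. The summed level of 4 smooth muscle or pericyte markers was 695 to 743 TPM in lung CD44low and at most 6.86 elsewhere. Of 6 macrophage markers, at most 2 reached 1 TPM in both libraries of any group (summed level 39.1 to 39.2 TPM in lung CD44low and 2.28 to 23.5 elsewhere), with *Adgre1* at 0 throughout, and none of 4 endothelial markers did so (at most 0.21 TPM summed). The 4 myoepithelial or basal markers summed to 594 to 655 TPM in MFP, 13.1 to 62.7 in LN and BM and 1.69 to 4.61 in lung. These marker levels move with every difference of the lung groups given here, and their part in it was not tested. *Cd44* mRNA did not follow the sort labels, at 12.2 and 21.6 TPM in lung CD44low and 21.9 and 12.1 in lung CD44high, 43.8 and 74.9 in BM CD44low and 50.5 and 49 in BM CD44high, and 147 and 82.7 in LN CD44low against 49.0 and 52.3 in LN CD44high. The replicates of BM CD44low had the lowest rank correlation across genes (Spearman 0.895, against 0.919 to 0.975 in the other groups). In the MFP libraries the summed MMP level was 294 and 44.5 TPM.

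MMPs are zinc endopeptidases that cut collagens, gelatin, proteoglycans and other matrix and surface proteins. Most are secreted as inactive precursors, and the membrane-type members stay on the cell surface, where MMP14 activates pro-MMP2 in a complex with TIMP2. TIMPs bind the active site of MMPs, and TIMP3, which is held in the matrix, also inhibits several ADAMTS proteases. ADAMTS proteases are secreted enzymes whose members include cleavers of hyalectan proteoglycans and processors of procollagen. In the mammary gland and its tumors both families take part in matrix remodeling and invasion.

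On chromosome 9, 10 of the MMP genes lie in 1 cluster, and the stretch before their start sites is shown because neighbours in this cluster were highest in different groups: *Mmp10* and *Mmp12* in MFP, *Mmp13* in BM CD44high, and *Mmp3* and *Mmp8* in lung CD44low. Activator protein 1 (AP-1), the dimer of Fos and Jun proteins, binds TGACTCA, which reads TGAGTCA on the other strand. The search used the looser TGANTCA, with any base in the middle, which reads the same on both strands. RefSeq windows (GRCm38.p6) from 250 bases before to 50 bases after the start were given for 32 of the 46 members, as 35 windows. *Mmp2*, *Mmp9*, *Mmp19* and *Adamts5* are among the members with no window, so the search says nothing about them. TGANTCA was found in a window of 8 of the 10 cluster genes, of none of the 22 other matched members, and in 7.81% of all 32851 windows. The cluster genes without it were *Mmp8* and *Mmp27*. In *Mmp20* the only match was TGAATCA. The last 100 bases before the start follow for 5 of them, 5′ to 3′ on the plus strand, with TGANTCA in capitals. *Mmp12* has 2 listed starts and the one with a match is shown.
Mmp3, chr9:7445722-7445821: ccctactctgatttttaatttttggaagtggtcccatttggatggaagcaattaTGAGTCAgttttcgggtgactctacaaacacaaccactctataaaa
Mmp10, chr9:7502242-7502341: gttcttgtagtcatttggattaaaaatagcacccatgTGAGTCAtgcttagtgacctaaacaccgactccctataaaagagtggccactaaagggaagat
Mmp12, chr9:7347274-7347373: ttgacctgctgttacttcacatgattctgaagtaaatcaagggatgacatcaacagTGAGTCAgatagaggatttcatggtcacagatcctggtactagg
Mmp13, chr9:7272414-7272513: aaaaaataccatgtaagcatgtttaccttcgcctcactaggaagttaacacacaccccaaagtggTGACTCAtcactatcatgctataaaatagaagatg
Mmp8, chr9:7558329-7558428: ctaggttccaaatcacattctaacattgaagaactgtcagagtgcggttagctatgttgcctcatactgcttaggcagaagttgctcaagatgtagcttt
The same letters stand in all 3 of *Mmp3*, *Mmp10* and *Mmp12*, and *Mmp13* carries the other strand's reading. A match describes the letters of the window and says nothing about binding in these cells.

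The lung CD44low lines held the highest level of more members than any other group. Of the 44 members with a value above 0 in any library, 23 had their highest group mean in lung CD44low (52.3%, against 20.6% of all 31466 genes with a value), 7 in MFP and 6 in lung CD44high. Levels of the MMPs summed to 689 and 782 TPM in the lung CD44low libraries, above every other library, the next being 1 MFP library at 294 TPM. The summed TIMP level was 4612 and 4865 TPM there, against 98.7 to 1513 TPM in all other libraries. The summed ADAMTS level overlapped between groups, at 160 and 248 TPM in lung CD44low, 125 and 188 in lung CD44high and 25.9 to 93.9 elsewhere. The heat map of the tested members shows these levels library by library.

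**Figure D1:**
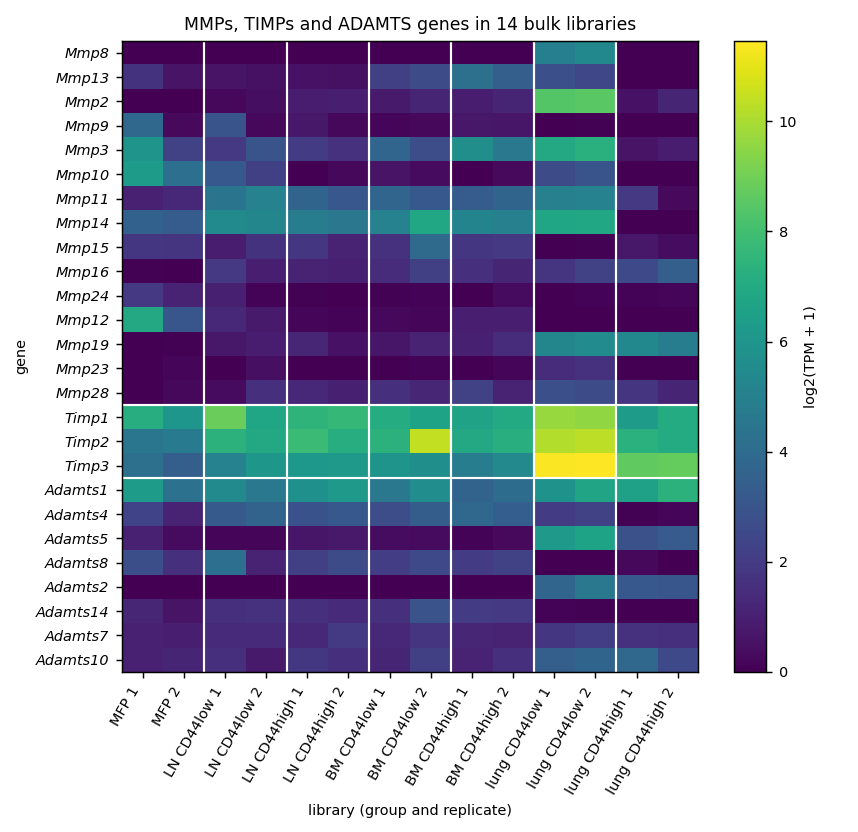
Level of the 26 tested members, as log2(TPM + 1) (color), in each of the 14 bulk libraries (columns, by group and replicate), with genes in rows by role and white lines between groups and families. *Timp3* in lung CD44low is the brightest row, *Mmp8* is above 0 only in lung CD44low, and *Mmp14* is at 0 only in lung CD44high.

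To ask which members differed between groups, log2(TPM + 1) was fitted across the 15348 genes that reached 1 TPM in 2 or more libraries, using limma with Benjamini-Hochberg adjustment over all of them. A member was counted as changed at an absolute difference over 2 on this scale and an adjusted p under 0.05. Of the members, 26 passed the filter (15 Mmp, 3 Timp and 8 Adamts genes) and 20 did not. *Mmp8* and *Mmp23* passed through lung CD44low, *Adamts2* and *Adamts5* through the lung libraries, and *Mmp12* and *Mmp24* through MFP, and would not have passed without them. *Mmp9* passed through 1 library each of MFP and LN CD44low. Where one of these is higher in the group it needed, the filter fixed the difference, and its levels are given with no test. Counts over the tested members include them and are a description only. Because each group has 2 libraries, an exact permutation test of single groups could not go below p = 0.333. Differences understate the change of low genes, and none between a pair of groups is given where one is listed at 0. Of 22 genes that every cell uses, 0 were listed at 0 in any library (lowest value 4.95 TPM).

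Against MFP, the lung CD44low lines had the most changed members. In lung CD44low, 13 members were higher and 3 lower, beside 11.2% and 7.62% of all tested genes. In lung CD44high, 7 were higher and 4 lower, beside 5.42% and 8.03%. The LN and BM lines changed less: LN CD44low had 2 higher and 2 lower (2.07% and 2.72% of all genes), LN CD44high 3 and 2 (2.44% and 3.68%), BM CD44low 3 and 2 (3.99% and 3.17%) and BM CD44high 3 and 2 (3.64% and 4.03%). The 6 comparisons share the MFP libraries. *Mmp12* is 1 of the lower members in each of them, and *Adamts2* and *Adamts5*, with *Mmp8* in lung CD44low, are among the higher ones in lung. Median differences of the tested members, beside those of all genes, were 2.21 and 0 in lung CD44low, -0.03 and -0.04 in lung CD44high, and between 0.24 and 0.59 against -0.34 to -0.04 in the other 4 groups.

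Within an organ, CD44high and CD44low lines were called different in these genes in lung. There, 12 members were lower and 0 higher in CD44high (8.8% and 2.49% of all genes), with a median of -1.39 over the tested members and -0.01 over all genes. These 12 include *Mmp8*. In LN, limma called 0 members (0.117% of all genes higher and 0.0912% lower), with 1 at an unadjusted p under 0.05 and the same limit on the difference, *Mmp10* (-2.54, limma adjusted p = 0.136). In BM, limma also called 0 (0.0521% each way), and 0 at the unadjusted p. The difference between organs was tested itself, as the CD44 difference in lung less the mean of those in LN and BM. In this test 10 members, *Mmp8* included, were lower and 0 higher (6.57% and 3.02% of all genes). Lung against LN and BM together gave 6 higher and 2 lower (7.13% and 5.54%), with *Adamts2*, *Adamts5* and *Mmp8* among the higher.

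**Figure D2:**
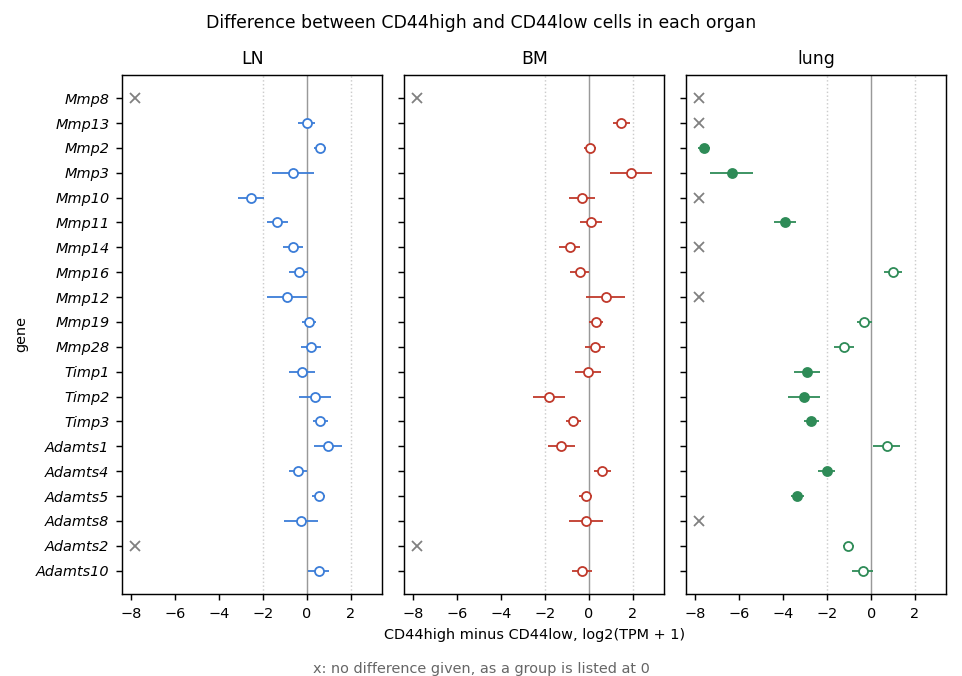
Difference of CD44high minus CD44low in log2(TPM + 1) of the 20 members given in full, in LN, BM and lung (panels). Points are fitted differences, bars the standard error, filled points changed members, dotted lines the limit of 2 and crosses members with no difference drawn because a group is listed at 0; all 8 filled points lie in lung, below 0, and the other 4 called members are crosses there, *Mmp8* among them with its difference fixed by the filter.

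Among the gelatinases, *Mmp2*, which encodes gelatinase A, showed the widest range of any MMP. Its level was 340.4 and 369 TPM in lung CD44low. It was 0.47 and 1.27 TPM in lung CD44high, 0.18 to 0.94 in the 4 LN libraries, 0.8 to 1.29 in the 4 BM libraries and 0 in both MFP libraries. The lung CD44low libraries thus lie apart from all others, none of which exceeded 1.29 TPM. The difference of lung CD44high from lung CD44low was -7.60 (SE 0.27, limma adjusted p = 2.4e-08), and it exceeded the CD44 difference in the other organs by -7.93 (SE 0.33, limma adjusted p = 1.26e-07). *Mmp9*, gelatinase B, was not called in any comparison. It was 13.8 TPM in one MFP library and 0.24 in the other, 6.95 and 0.19 in LN CD44low, and at most 0.69 elsewhere, so that replicates of a group differed more than groups did.

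The collagenases *Mmp8* and *Mmp13*, which cut fibrillar collagen, were both present in lung CD44low and listed at 0 in lung CD44high. *Mmp8*, the collagenase known from neutrophils, was 29.6 and 39.2 TPM in lung CD44low and listed at 0 in the other 12 libraries. *Mmp13* was 17.9 and 9.99 TPM in BM CD44high, 3.46 and 5.14 in BM CD44low and 5.93 and 4.41 in lung CD44low. It was 2.25 and 0.53 TPM in MFP, 0.41 to 0.52 in LN and 0 in both lung CD44high libraries. BM CD44high was above every other library and differed from MFP by 2.69 (SE 0.39, limma adjusted p = 0.000818). Its difference from BM CD44low, 1.46 (SE 0.39), did not pass (limma adjusted p = 0.461). The remaining collagenases, *Mmp1a* and *Mmp1b*, failed the filter, and as they are related copies, how reads were divided between them is uncertain.

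The stromelysins, which cut proteoglycans and laminin and activate other MMPs, differed from each other. *Mmp3* was 122 and 154 TPM in lung CD44low and 0.52 and 0.9 in lung CD44high. It was 60.6 and 3.72 TPM in MFP, 50.1 and 23.2 in BM CD44high, 12.4 and 5.45 in BM CD44low, 2.71 and 6.9 in LN CD44low, and 3.01 and 2.07 in LN CD44high. Lung CD44low lies above every other library and lung CD44high below all. The difference between them was -6.34 (SE 0.97, limma adjusted p = 0.000832). *Mmp3* was also called higher in lung CD44low than in MFP (3.02, SE 0.97, limma adjusted p = 0.0285) and lower in lung CD44high (-3.33, SE 0.97, limma adjusted p = 0.0226), but both calls rest on unlike MFP replicates. Without MFP replicate 2 the first fell to 1.16, and without MFP replicate 1 the second was -1.47, neither called. Without either library of the lung group they were 2.85 to 3.19 and -3.49 to -3.17, close to the full values, with an adjusted p over 0.05.

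*Mmp10* was highest in MFP, at 79.2 and 17.2 TPM, against 7.88 and 3.51 in LN CD44low and 5.32 and 6.98 in lung CD44low. It was at most 0.51 TPM in the other groups and listed at 0 in lung CD44high. The MFP libraries lie above all others. It was called lower in all 6 other groups, by -2.60 (SE 0.58, limma adjusted p = 0.015) in LN CD44low, -5.13 (SE 0.58, limma adjusted p = 0.000215) in LN CD44high and -2.43 (SE 0.58, limma adjusted p = 0.00714) in lung CD44low. Without MFP replicate 1 the LN CD44low and lung CD44low differences were -1.53 and -1.36 and no longer called. Without LN CD44low replicate 2 and without lung CD44low replicate 1 they were -2.11 and -2.26, with an adjusted p over 0.05. *Mmp10* and *Mmp3* are close paralogs.

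*Mmp11*, stromelysin 3, which is known from tumor stroma, was lowest in MFP and lung CD44high. It was 1.07 and 1.51 TPM in MFP and 2.78 and 0.21 in lung CD44high. It was 30.6 and 32.4 TPM in lung CD44low, 20.2 and 32.8 in LN CD44low, 11.9 and 7.66 in LN CD44high, 12.2 and 7.85 in BM CD44low and 9.23 and 11.9 in BM CD44high. These 10 libraries all lie above the other 4. It was called higher than MFP in 5 groups, from 2.21 (SE 0.50, limma adjusted p = 0.0101) in LN CD44high to 3.83 (SE 0.50, limma adjusted p = 0.000177) in lung CD44low. The calls in LN CD44high, BM CD44low and BM CD44high were lost without MFP replicate 1, at 2.07 to 2.19. The LN CD44high call was also lost without LN CD44high replicate 1 (1.93), and the BM CD44low call without BM CD44low replicate 1 (1.96). Without BM CD44high replicate 2 the BM CD44high call was lost at 2.17. Where the difference stayed over 2, the call failed on the adjusted p and not on the limit. Lung CD44high was lower than lung CD44low by -3.92 (SE 0.50, limma adjusted p = 0.000236), and this differed from the other organs (-3.30, SE 0.61, limma adjusted p = 0.00356). *Mmp7*, matrilysin, was listed at 0 in all 14 libraries.

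Among the membrane-type MMPs, *Mmp14*, the activator of pro-MMP2, was expressed in every group but one. It was 107 and 118 TPM in lung CD44low and listed at 0 in both lung CD44high libraries. It was 32.5 and 117 TPM in BM CD44low, 35.5 and 30.6 in BM CD44high, 42.4 and 37.8 in LN CD44low, 28.2 and 22.7 in LN CD44high, and 10.8 and 9.04 in MFP. Every LN, BM and lung CD44low library lies above both MFP libraries. The loss in lung CD44high was called against lung CD44low (limma adjusted p = 2.19e-06) and MFP (limma adjusted p = 0.000297), and in the test of the difference between organs (limma adjusted p = 3.29e-05). Lung CD44low exceeded MFP by 3.38 (SE 0.46, limma adjusted p = 0.000237). BM CD44low exceeded MFP by 2.53 (SE 0.46, limma adjusted p = 0.00332), but by 1.62 and not called without BM CD44low replicate 2. In LN CD44low the difference of 1.91 (SE 0.46, limma adjusted p = 0.0201) and in BM CD44high that of 1.64 (SE 0.46, limma adjusted p = 0.0243) stayed under the limit of 2. Genes next to it on chromosome 14 were expressed in lung CD44high, with *Mrpl52* at 174 and 324 TPM and *Lrp10* at 51.6 and 23.9 TPM.

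Of the other membrane-type members, *Mmp16* was the only one called. It was 4.71 and 10.2 TPM in lung CD44high, 2.37 and 3.81 in lung CD44low and 0.94 to 3.51 in LN and BM. In MFP it was 0.04 and 0 TPM, below all 12 other libraries. The difference of lung CD44high from MFP was 2.97 (SE 0.43, limma adjusted p = 0.000476), and that of lung CD44low was 1.98 (SE 0.43, limma adjusted p = 0.00398), just under the limit. *Mmp15* reached 14.7 TPM in BM CD44low replicate 2 against 2.1 in replicate 1 and at most 2.74 elsewhere. *Mmp24* was 2.71 and 1.15 TPM in MFP and at most 1.04 in the other libraries. *Mmp17* and *Mmp25* stayed at or below 0.58 and 0.8 TPM.

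Of the remaining 7 MMPs, 4 were tested and 1 of these, *Mmp19*, was called in lung against LN and BM. In that comparison 7.13% of all genes were higher and 5.54% lower. *Mmp19*, a broad matrix protease, was 37.7 and 44.9 TPM in lung CD44low and 40.1 and 27.4 in lung CD44high. It was 0.48 to 1.76 TPM in LN and BM, and 0 and 0.05 in MFP. All 4 lung libraries thus lie far above the rest. The lung lines exceeded LN and BM by 4.29 (SE 0.20, limma adjusted p = 9.24e-08). CD44high and CD44low lung cells differed by -0.30 (SE 0.33, limma adjusted p = 0.546), unlike *Mmp2* and *Mmp14*. *Mmp19* shares 789 exonic bases with the opposite-strand gene *Tmem198b*, and the libraries do not mark strand.

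*Mmp12*, the macrophage metalloelastase, was 119 and 7.31 TPM in MFP and at most 1.44 in all other libraries, with 0 in all 4 lung libraries. The MFP libraries lie above all others and apart from each other. The macrophage markers summed to 10.5 and 23.3 TPM in the MFP libraries. *Mmp28*, an epithelial MMP known as epilysin, was 5.93 and 5.15 TPM in lung CD44low, 2.46 and 1.26 in lung CD44high, 0.28 to 3.63 in LN and BM, and 0 and 0.18 in MFP. Lung CD44low exceeded MFP by 2.59 (SE 0.45, limma adjusted p = 0.00115). *Mmp23* was 1.78 and 2.09 TPM in lung CD44low and at most 0.4 elsewhere, and *Mmp27* reached 1.29 TPM, also in lung CD44low. *Mmp20*, the enamel protease, and *Mmp21* did not exceed 0.04 TPM.

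**Figure D3:**
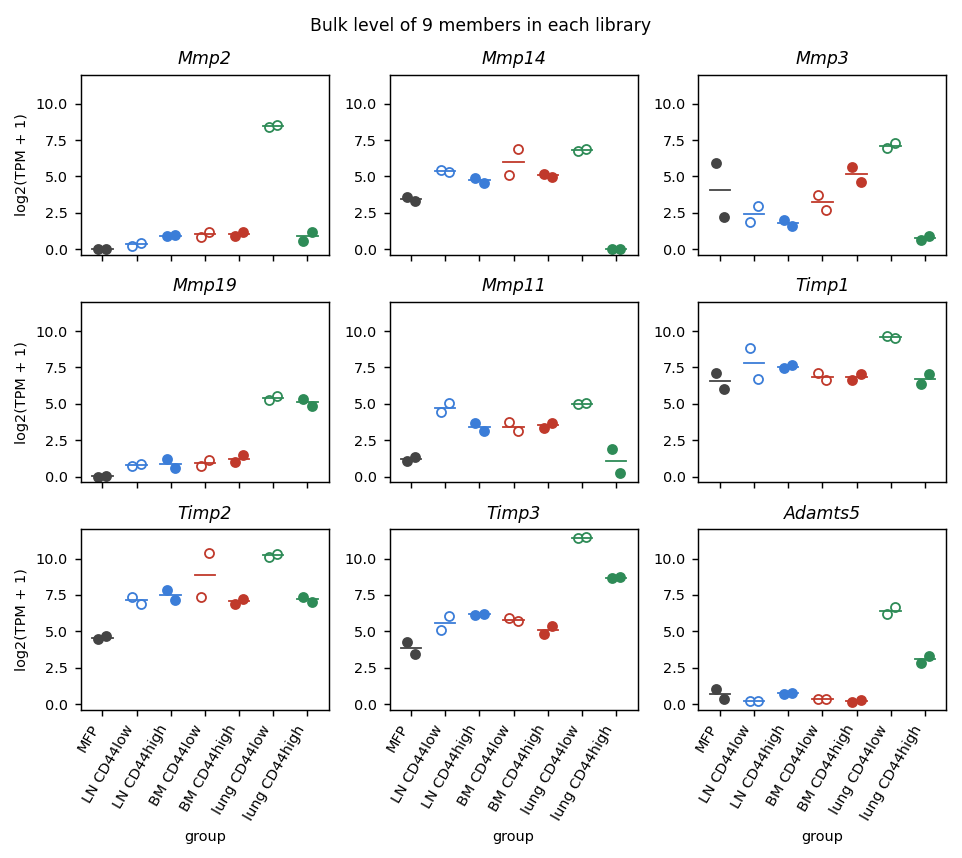
Level of 9 members as log2(TPM + 1) in each library (points) with the group mean (line), by group on the horizontal axis; open points are CD44low, filled points CD44high or MFP. *Mmp19* is high in both lung groups, whereas *Mmp2*, *Mmp14*, *Mmp3* and *Mmp11* are high in lung CD44low and low or at 0 in lung CD44high.

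All 3 tested TIMPs were called higher in lung CD44low than in MFP, beside 11.2% of all genes. *Timp3*, the matrix-bound inhibitor, was 2679.9 and 2824 TPM in lung CD44low and 401 and 426 in lung CD44high. It was 32.8 and 65.1 TPM in LN CD44low, 68.1 and 73.1 in LN CD44high, 59.5 and 50.9 in BM CD44low, 27.1 and 40.5 in BM CD44high, and 17.9 and 9.93 in MFP. Levels therefore stood in 3 steps, with lung CD44low above lung CD44high and both above all others. Lung CD44low exceeded MFP by 7.58 (SE 0.34, limma adjusted p = 9.5e-08) and lung CD44high by 4.85 (SE 0.34, limma adjusted p = 4.67e-06). Lung CD44high was lower than lung CD44low by -2.73 (SE 0.34, limma adjusted p = 0.000233). LN CD44high was called higher than MFP by 2.31 (SE 0.34, limma adjusted p = 0.00116), and at 1.92 not called without MFP replicate 2. *Timp3* lies within the opposite-strand gene *Syn3*, with which it shares 1733 of 8144 exonic bases.

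*Timp1*, the secreted inhibitor that is induced by many cytokines, was 816 and 749 TPM in lung CD44low. It was 80.4 and 133 TPM in lung CD44high, 139 and 64.4 in MFP, 177 and 198 in LN CD44high, and 97.4 to 137 in the 4 BM libraries. In LN CD44low the replicates differed, at 452 and 105 TPM. Only lung CD44low lies above all others. It exceeded MFP by 3.03 (SE 0.59, limma adjusted p = 0.00241), and lung CD44high was lower than it by -2.90 (SE 0.59, limma adjusted p = 0.00484). The difference from the other organs, -2.77 (SE 0.73, limma adjusted p = 0.0225), was not called without either lung CD44low library or without lung CD44high replicate 1, at differences of -2.83 to -2.41.

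*Timp2*, the partner of MMP14 in activating MMP2, was lowest in MFP, at 21.3 and 24.4 TPM. It was 1116 and 1291 TPM in lung CD44low and 161 and 129.9 in lung CD44high. BM CD44low was split, at 163 and 1364 TPM. It was 164 and 118 TPM in LN CD44low, 225 and 142 in LN CD44high, and 119 and 150.0 in BM CD44high. All 12 libraries of LN, BM and lung lie above both MFP libraries, and *Timp2* was called higher in all 6 groups, from 2.50 (SE 0.74, limma adjusted p = 0.0315) in BM CD44high to 5.66 (SE 0.74, limma adjusted p = 0.000188) in lung CD44low. The SE is wide because of the split BM CD44low group, and in both LN groups, BM CD44high and lung CD44high the call was lost without any 1 library of the compared groups, at differences of 2.32 to 3.25. Lung CD44high was lower than lung CD44low by -3.04 (SE 0.74, limma adjusted p = 0.0118), a call also lost without any 1 of those 4 libraries, at -3.20 to -2.89. *Timp4* did not exceed 0.21 TPM.

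Among the hyalectanases, the ADAMTS proteases that cut aggrecan and versican, *Adamts5* was highest in lung CD44low. It was 72.1 and 100.1 TPM in lung CD44low and 6.23 and 8.8 in lung CD44high. It was 1.06 and 0.28 TPM in MFP and 0.08 to 0.71 in LN and BM. As for *Timp3*, the lung groups lie apart from each other and above all other libraries. Lung CD44high was lower than lung CD44low by -3.35 (SE 0.30, limma adjusted p = 1.71e-05).

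*Adamts1* had the highest group mean of the ADAMTS genes in every group but lung CD44low and was called in no comparison. It was 92.9 and 165 TPM in lung CD44high, 56.3 and 102 in lung CD44low, 52.2 and 73.2 in LN CD44high, 42.1 and 23.1 in LN CD44low, 23.4 and 48.7 in BM CD44low, 11.7 and 15.8 in BM CD44high, and 77.1 and 19.2 in MFP. Lung exceeded LN and BM by 1.62 (SE 0.39, limma adjusted p = 0.00479), under the limit of 2.

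*Adamts4* and *Adamts8* went the other way and were low in lung. *Adamts4* was 0.06 and 0.1 TPM in lung CD44high and 3.11 and 3.68 in lung CD44low. It was 8.43 and 11.4 TPM in LN CD44low, 6.46 and 7.99 in LN CD44high, 5.45 and 9.41 in BM CD44low, 13.4 and 9.76 in BM CD44high, and 3.89 and 1.23 in MFP. All 8 LN and BM libraries lie above all lung and MFP libraries, and lung was lower than LN and BM by -2.16 (SE 0.24, limma adjusted p = 4.32e-05). Its difference between the lung groups, -2.02 (SE 0.40, limma adjusted p = 0.00395), lies at the limit and was -1.92 with median-ratio scaling, -1.66 with the GC and length trend removed. Without lung CD44high replicate 1 or lung CD44low replicate 2 the call was also lost, the smallest difference being -1.93. *Adamts8* was 0 in both lung CD44low libraries and 0.18 and 0.03 TPM in lung CD44high, against 5.72 and 1.88 in MFP, 17 and 1.21 in LN CD44low and 3.16 to 5.16 in the other 6. Lung was lower than LN and BM by -2.31 (SE 0.48, limma adjusted p = 0.00219), and by -1.93, not called, without LN CD44low replicate 1. Its call in lung CD44low against MFP (limma adjusted p = 0.0486) was lost without any 1 of the 4 libraries. *Adamts9*, *Adamts15* and *Adamts20* did not exceed 0.78 TPM.

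Of the procollagen N-proteinases, which trim fibrillar procollagens, *Adamts2* was found in lung alone. It was 12.3 and 22.8 TPM in lung CD44low and 8 and 7.32 in lung CD44high, and at most 0.02 TPM in the other 10 libraries. It was listed at 0 in both MFP libraries, and the lung groups did not overlap. *Adamts14*, its relative, showed the opposite order, at 0 to 0.08 TPM in lung, 0.5 and 1.34 in MFP and 1.66 to 6.69 in LN and BM. Lung was lower than LN and BM by -1.76 (SE 0.24, limma adjusted p = 0.000158), under the limit. *Adamts3* did not exceed 0.26 TPM.

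Among the other ADAMTS genes, *Adamts10*, which acts on fibrillin microfibrils, was 9.96 and 11.8 TPM in lung CD44low, 13.1 and 4.84 in lung CD44high, 0.8 to 3.47 in LN and BM, and 1.05 and 1.3 in MFP. All 4 lung libraries lie above the rest. Lung CD44low exceeded MFP by 2.45 (SE 0.47, limma adjusted p = 0.00208). Lung CD44high exceeded it by 2.06 (SE 0.47, limma adjusted p = 0.00656), and by 1.43, not called, without lung CD44high replicate 1; without MFP replicate 1 it was 1.98, just under the limit. *Adamts7* was 0.95 to 3.26 TPM in all libraries. *Adamts6*, *Adamts12* and *Adamts18* reached 1.37, 1.02 and 1.47 TPM, and *Adamts13*, *Adamts16*, *Adamts17* and *Adamts19* at most 0.53 TPM.

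The single-cell libraries gave a second measurement of lungH, lungL and lymphH. With 1 library each no test of the conditions is possible, and intervals cover counting error only. After the filters that the study states (over 250 genes and under 10% mitochondrial counts), 1236, 348 and 2562 cells of 3623, 2808 and 3297 barcodes remained. They held 2210623, 2220759 and 5287425 counts, with a median of 557, 4011 and 585 counts per cell. Each number of cells is above the one the paper gives for that library, so these are not the study's own sets of cells. Of the 46 members, 23 had at least 20 counts over the 3 libraries, 11 had 1 to 19 and 12 had 0. Summed over the cells, MMPs made up 6.84 counts per 10000 in lungL (95% Poisson interval 6.50 to 7.20), 0.995 in lungH (0.868 to 1.14) and 0.959 in lymphH (0.877 to 1.05). TIMPs made up 34.1 per 10000 in lungL, 17.99 in lungH and 35.9 in lymphH, a lungL to lymphH ratio of 0.949 (0.924 to 0.975), whereas the bulk TIMP sum was 4612 and 4865 TPM in lung CD44low and 470 and 413 in LN CD44high. ADAMTS genes made up 2.99 per 10000 in lungL, 1.74 in lungH and 1.78 in lymphH. The epithelial marker *Epcam* was 1.77 counts per 10000 in lymphH, 0 in lungL and 3 counts in lungH.

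*Mmp2*, *Mmp3*, *Mmp13* and *Mmp14* were highest in lungL. In bulk *Mmp13* was instead highest in BM CD44high, a group with no single-cell library here. *Mmp2* was 2.63 counts per 10000 in lungL (2.43 to 2.86), with 2 counts in lungH and 1 in lymphH, a ratio of lungL to lungH of 291 (80.2 to 2410). *Mmp3* was 1.63 per 10000 in lungL (1.46 to 1.80), 24.0 times its level in lungH (14.3 to 43.3). *Mmp13* was 0.486 per 10000 in lungL, 9.77 times its level in lungH (5.25 to 20.2), and 0 counts in lymphH. *Mmp14* was 0.572 per 10000 in lungL (0.477 to 0.680) and 0.337 in lymphH (0.289 to 0.390). In lungH it had 0 of 2210623 counts, so that lungL was at least 42.1-fold higher than the limit of 3 counts in that library. *Mmp19*, high in both lung groups in bulk, was 0.275 per 10000 in lungL, 0.104 in lungH and 0.0284 in lymphH. *Mmp8* had 3 counts, all in 1 lungL cell.

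**Figure D4:**
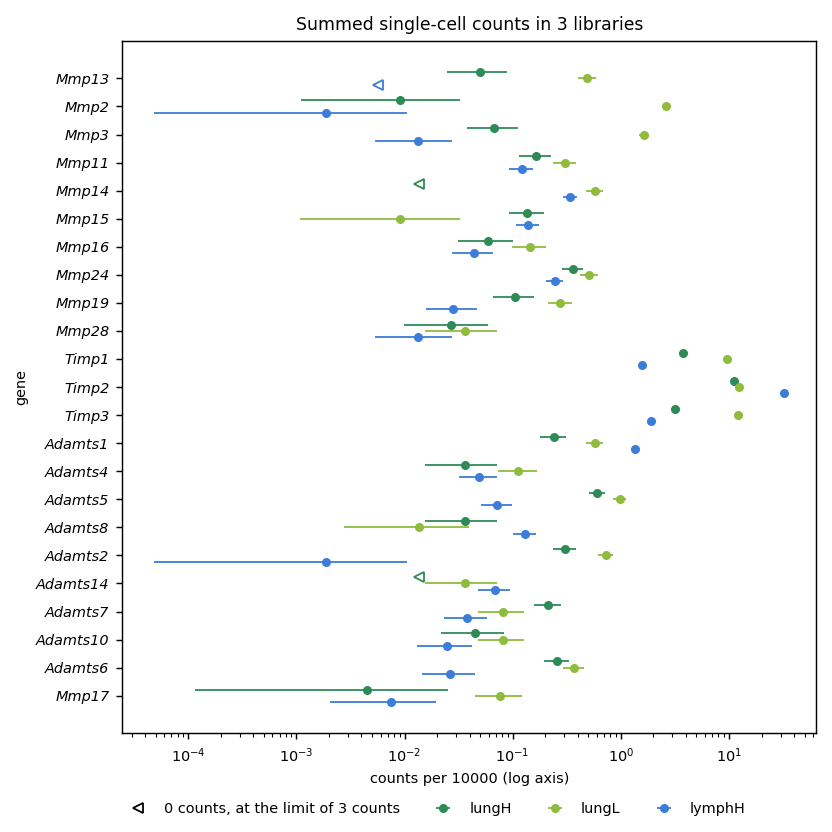
Summed counts per 10000 (log axis) of the 23 members with at least 20 counts, in lungH, lungL and lymphH. Points carry exact 95% Poisson intervals and open triangles stand at the limit of 3 counts where a library had 0; the lungL points of *Mmp2*, *Mmp3* and *Mmp13* lie far to the right of the other libraries, and *Timp2* is highest in lymphH.

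*Timp1* and *Timp3* kept the order lungL over lungH in single cells, but *Timp2* did not show the bulk difference. *Timp1* was 9.55 counts per 10000 in lungL, 3.73 in lungH and 1.58 in lymphH, a ratio of lungL to lungH of 2.56 (2.36 to 2.78). *Timp3* was 12.2 per 10000 in lungL, 3.14 in lungH and 1.92 in lymphH, a ratio of 3.87 (3.56 to 4.22). *Timp2* was 12.4 per 10000 in lungL (11.9 to 12.8), 11.1 in lungH (10.7 to 11.6) and 32.4 in lymphH (31.9 to 32.9). The lungL to lungH ratio of *Timp2* was 1.11 (1.05 to 1.17), whereas bulk levels were 1116 and 1291 against 161 and 129.9 TPM. *Timp2* was detected in 72.6% of lymphH, 70.4% of lungL and 41.7% of lungH cells. After each cell was thinned to 250 counts these shares were 46.1%, 22.7% and 20.6%. The cause of the unlike ratios was not tested.

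Of the ADAMTS genes, *Adamts5* and *Adamts2* kept in single cells the order lungL, lungH, lymphH of the bulk groups. *Adamts5* was 0.977 counts per 10000 in lungL, 0.602 in lungH and 0.0719 in lymphH. *Adamts2* was 0.729 in lungL and 0.303 in lungH, with 1 count in lymphH. *Adamts1*, in contrast, was highest in lymphH, at 1.35 per 10000 (1.25 to 1.45), against 0.572 in lungL and 0.240 in lungH, while in bulk it was highest in lung CD44high. *Adamts6*, which failed the bulk filter, was 0.369 in lungL, 0.258 in lungH and 0.0265 in lymphH. *Adamts7* was 0.213 in lungH, 0.0811 in lungL and 0.0378 in lymphH. *Adamts8* was again highest outside lung, at 0.130 in lymphH against 0.0362 in lungH and 0.0135 in lungL. *Adamts4*, higher in LN and BM than in lung in bulk, was 0.113 in lungL, 0.0362 in lungH and 0.0492 in lymphH, with a lungL to lymphH ratio of 2.29 (1.27 to 4.13). *Adamts10* and *Adamts14* stayed at or below 0.0811 in every library.

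Among the scarcer MMPs, *Mmp11* was 0.306 counts per 10000 in lungL, 0.163 in lungH and 0.121 in lymphH, a lungL to lungH ratio of 1.88 (1.24 to 2.90). *Mmp15* had the opposite order, at 0.136 in lungH and 0.138 in lymphH with 2 counts in lungL, and in bulk it was also lower in lung CD44low (0.01 and 0.06 TPM) than in lung CD44high (0.69 and 0.32 TPM). *Mmp16*, *Mmp17* and *Mmp28* stayed at or below 0.144 in every library. *Mmp24* was 0.513 per 10000 in lungL and 0.362 in lungH, although its bulk level in lung did not exceed 0.15 TPM; it shares 637 of 4683 exonic bases with *BC029722* on the other strand.

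Partner genes of the same proteolytic system were counted from lists, and those called are named by highest group mean. Of 9 activators, inhibitors and clearance receptors, 7 were tested, and 5 were higher in lung CD44low than in MFP and 0 lower (11.2% and 7.62% of all genes). Among partners too, the filter fixed some differences. To pass it, *Pcsk5* needed lung CD44low, *Adamtsl3* needed the lung libraries, and *Adam8*, *Vcan* and *Serpinb2* needed MFP. *Bsg*, the MMP inducer basigin, was 3765 and 4329 TPM in lung CD44low and 798 and 863 in MFP (2.28, SE 0.57, limma adjusted p = 0.00866). *Lrp1*, the receptor that takes up MMPs and TIMPs, was 229 and 437 TPM in lung CD44low, 11.1 and 3.34 in lung CD44high and 0.95 and 0.33 in MFP (lung CD44low against MFP 7.62, SE 0.72, limma adjusted p = 1.99e-05). *Reck*, a membrane inhibitor of MMPs, was 27.3 and 33.3 TPM in lung CD44low, 4.2 and 2.47 in lung CD44high and 0.28 and 0.27 in MFP (4.61, SE 0.38, limma adjusted p = 6.66e-06). The proprotein convertase *Pcsk5* was 22.3 and 23.0 TPM in lung CD44low and at most 0.97 elsewhere. For these 4 genes both lung CD44low libraries lie above all others. In lung CD44high, 4 of the 7 were lower than in lung CD44low (8.8% of all genes), *Lrp1*, *Reck*, *Pcsk5* and *Pcsk6*. The filter fixed the difference of *Pcsk5* between the lung groups too, so this count is a description only.

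The plasminogen activation genes moved differently. Of 8 tested, 1 was higher and 7 lower, *Serpinb2* included, in lung CD44high than in MFP (5.42% and 8.03% of all genes). *Serpine2*, the inhibitor protease nexin 1, was 10.1 and 14.3 TPM in lung CD44high and 151 and 72.7 in MFP (-3.02, SE 0.67, limma adjusted p = 0.00569), and was 372 to 2724 TPM in LN and BM. The plasminogen-binding pair *Anxa2* and *S100a10* differed from MFP by -2.71 (SE 0.24, limma adjusted p = 2.02e-05) and -2.91 (SE 0.33, limma adjusted p = 0.00011). *Plaur*, the urokinase receptor, was 0.66 and 1.03 TPM in lung CD44high and 144 and 103 in MFP (-6.07, SE 0.29, limma adjusted p = 3.8e-07). Both lung CD44high libraries were the lowest of all 14 for each of these 4 genes. In lung CD44low, 1 was higher and 2, *Plaur* and *Serpinb2*, were lower than in MFP (11.2% and 7.62% of all genes).

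AP-1 subunits, which bind the letters shown in the promoters, did not move as one. Of 7 tested, 3 were higher in lung than in LN and BM and 0 lower (7.13% and 5.54% of all genes), *Junb* (2.22, SE 0.31, limma adjusted p = 0.000164), *Fos* (2.93, SE 0.31, limma adjusted p = 2.92e-05) and *Fosl2* (3.01, SE 0.27, limma adjusted p = 9.8e-06). Between the lung groups, 2 were lower in CD44high (8.8% of all genes). *Jund* was 144 and 226 TPM in lung CD44low, 3.77 and 2.46 in lung CD44high and 2.64 to 8.26 elsewhere, except 138 in BM CD44low replicate 2 (-5.48, SE 1.18, limma adjusted p = 0.00647). *Fosl1*, the subunit Fra-1, was 20.8 and 29.9 TPM in lung CD44low, 2.34 and 2.45 in lung CD44high and highest in MFP, at 91.4 and 70.7 (-2.93, SE 0.51, limma adjusted p = 0.00182).

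Of 7 tested sheddases, 1 was higher and 1 lower in lung CD44low than in MFP, near the 11.2% and 7.62% of all genes. *Adam9* was 131 and 179 TPM in lung CD44low and 23.0 and 23.6 in MFP (2.66, SE 0.29, limma adjusted p = 5.43e-05). *Adam8* was 26.2 and 37 TPM in MFP and at most 3.09 in the other 12 libraries. Of 5 tested ADAMTS-like genes, 2 were higher than in MFP in lung CD44low, *Adamtsl3* and *Adamtsl5*, and 2 in lung CD44high, *Adamtsl3* and *Adamtsl4* (11.2% and 5.42% of all genes). *Vcan*, the only tested hyalectan substrate, was 15.9 and 10.4 TPM in MFP and at most 0.78 in the other 12 libraries.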

How the data were processed

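Bulk libraries were made by the authors with a modified SMART-seq2 protocol, whose libraries do not mark strand, aligned with STAR to mm10 and quantified with RSEM on a GENCODE mouse annotation. The deposited values are TPM, which keep no depth. All 55450 deposited identifiers matched GENCODE vM21. The single-cell libraries (ddSeq, a 3′ method) were assigned to barcodes with Ddseeker and quantified with kallisto by the authors, who deposited raw counts per gene and barcode. Cells carry numbers in place of barcode sequences, so barcodes shared between libraries could not be counted.

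The study's own test (edgeR, on counts) could not be used on TPM. Values were taken as log2(TPM + 1), filtered at 1 TPM in 2 of 14 libraries, and fitted with limma 3.58.1 (lmFit, eBayes with trend) in R 4.3.3, with a mean for each of the 7 groups and 7 degrees of freedom left for the spread. The procedure was tested on simulated data. In single cells counts were summed over cells, with exact Poisson and binomial 95% intervals (scipy 1.17.1, Python 3.11.15), and cells were thinned to 250 counts for shares. Ratios against a count of 0 used a limit of 3 counts. No doublet caller was run. Figures were drawn with matplotlib 3.10.9.

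A member is given in every library where it was called in at least 1 of 10 comparisons or had a group mean of at least 10 TPM (20 members). The others are named by their highest value. Genes of the partner lists are named where called, at most 4 a list and comparison, the highest group mean first. The result of 1 gene of the plasminogen list is not reported here. The members and all gene lists were chosen with earlier results of these data known. Alternatives were a pseudocount of 0.1, no filter, a filter at 5 TPM, median-ratio scaling, a block for the replicate number, an unadjusted p, no limit on the difference, each library left out, and for single cells over 500 genes, a mitochondrial limit of 20% and all barcodes. A fit with the dependence on GC content and transcript length taken out library by library was added after the data were seen.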

Additional observations from a re-analysis of the deposited data

Results flagged for a closer look

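The CD44 difference in lung (CD44high minus CD44low) was tested against the mean of the same difference in LN and BM, on the log2(TPM + 1) scale with limma. For 9 members, beside *Mmp8*, whose difference the filter fixed, the difference between organs was called, all in the direction of lower levels in lung CD44high. It was -7.93 for *Mmp2*, -6.99 for *Mmp3*, -6.06 for *Mmp14*, -3.54 for *Adamts5*, -3.34 for *Mmp13*, -3.30 for *Mmp11*, -2.77 for *Timp1*, -2.67 for *Timp3* and -2.12 for *Adamts4*. *Mmp13* and *Mmp14* were listed at 0 in both lung CD44high libraries, so their values depend on the pseudocount and give no fold. Without either lung CD44low library or lung CD44high replicate 1, *Timp1* was not called, at -2.83 to -2.41. The call for *Adamts4* was lost without lung CD44low replicate 2 or BM CD44low replicate 1 and, at -1.99, with the GC and length trend removed. The epithelial markers summed to 1.74 to 2.36 TPM in lung CD44low and 15.8 to 87.6 in lung CD44high, against at least 2185 in LN and BM. The fibroblast markers summed to 4708 to 5117 TPM in lung CD44low, 85.7 to 194.8 in lung CD44high and at most 19.9 in LN and BM. The part of these markers in the differences was not tested.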

How the results depend on the processing

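Of 76 called values, 55 were called in every setting and none changed sign, 21 were lost in at least 1 fit without a library, and 8 under another setting. With a pseudocount of 0.1, 7 members were called in LN CD44low, 10 in LN CD44high, 11 in BM CD44low, 11 in BM CD44high and 18 in lung CD44high against MFP, and 13 in lung against LN and BM. Calls over all 15348 genes rose as well. They were 736 higher and 694 lower in LN CD44low, and 857 and 1019 in LN CD44high. In BM CD44low they were 1284 and 771, and in BM CD44high 1166 and 1029. In lung CD44high they were 1398 and 1888, and in lung against LN and BM 1957 and 1693. With no limit on the difference the counts were 7, 8, 12 and 13 in these LN and BM groups against MFP, and 16 in lung against LN and BM. Of the 15348 genes, this setting called 691 higher and 1459 lower in LN CD44low, and 901 and 2752 in LN CD44high. It called 1436 and 2121 in BM CD44low, 1286 and 2858 in BM CD44high, and 5511 and 3678 in lung against LN and BM. At the unadjusted p, 1 member was called between the LN groups. Leaving out each library in turn gave 3 to 4 called members in LN CD44low, 3 to 5 in LN CD44high, 5 to 7 in BM CD44low, 4 to 6 in BM CD44high, 14 to 16 in lung CD44low and 8 to 12 in lung CD44high against MFP, 10 to 11 between the lung groups, 0 to 2 between the BM groups (2 without BM CD44low replicate 1), 0 between the LN groups, 7 to 9 in lung against LN and BM, and 8 to 11 in the test between organs. The lowest counts in LN CD44high came without MFP replicate 1 and without LN CD44high replicate 1. Between the BM groups, calls over all genes also rose without BM CD44low replicate 1, most of them lower in CD44high. That fit leaves 1 library in BM CD44low, so its 2 called members do not set these genes apart from the rest. *Adamts8* in lung CD44low against MFP was lost without any 1 of the 4 libraries, with median-ratio scaling, with no filter and with the replicate block. Median-ratio scaling moved the median of all genes by up to 0.37 and changed the direction of no called member.

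Same-numbered replicates did not deviate together across genes (correlations from -0.194 to 0.168, with 3 of 21 pairs over 0.1). Such correlations cannot show whether same-numbered libraries came from the same mouse or culture. The main fit treats the libraries as unpaired. With the replicate block, 3 members were called in LN CD44low and 15 in lung CD44low against MFP, against 4 and 16 without it; the calls lost were *Timp2* in LN CD44low (adjusted p = 0.0601) and *Adamts8* in lung CD44low (adjusted p = 0.052). In single cells 18 of 207 alternative values lay outside the counting interval. Depth is unknown in bulk, and each group rests on 2 lines.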
